A study of Mus musculus with 7 samples.

Results

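Smooth muscle contractile genes were followed in cancer-associated fibroblasts (CAFs), the stromal cells that surround a pancreatic tumor. The set was a list of 10 gene symbols: Acta2, Actg2, Myh11, Myl9, Tagln, Cnn1, Lmod1, Tpm1, Tpm2 and Des. 9 of the 10 had a row in the count table, which lists 12771 genes, and Lmod1 was not analysed here. All 9 were tested and all had a mean normalized count over 5, so that threshold removed none of the 9. Every gene in the count table reached at least 6 counts in some library, and whether low counts left Lmod1 out was not tested. 2 of the 9, Acta2 and Des, rose in CAFs from Brca2-silenced tumors, none fell, and 7 did not pass the test. By the same thresholds 3.77% of all tested genes rose. The number of members that rose depended on single libraries, and ran from 0 to 6 as each was left out in turn.

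The CAFs came from tumors that KPC cells, a mouse pancreatic cancer line, formed in the pancreas of male C57BL/6 mice (C57BL/6 J in the study's methods) injected at 8 weeks of age. The KPC cells carried a lentiviral pLKO.1 short hairpin RNA, selected with puromycin, that was either directed at Brca2 (shBrca2) or non-targeting (shControl). The host fibroblasts were not transduced, so the groups differ in the cancer cells and not in the genotype of the CAFs. Tumors were taken 2 to 3 weeks after injection, CD45+ and EpCAM+ cells were depleted on beads, and the live podoplanin-positive cells that lacked CD45, CD31 and EpCAM were sorted. RNA was read at the 3′ end by a variant of MARS-seq. The shControl group held 3 libraries, numbered 1, 2 and 4, and the shBrca2 group 4, numbered 1 to 4, each from 1 mouse as the study describes them, so the p-values measure the spread between these mice, all bearing cells of a single KPC line.

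Contraction of smooth muscle rests on thin filaments of smooth muscle actin sliding on filaments of smooth muscle myosin, after the myosin light chain has been phosphorylated. Tropomyosins lie along the actin, calponin and transgelin bind it, and desmin filaments tie the contractile apparatus together. Fibroblasts of tumors and wounds can take up a part of this program, and αSMA, the product of Acta2, is the usual marker of myofibroblast-like CAFs, while pericytes and vascular smooth muscle cells express it as well. Many of these genes are driven by serum response factor (SRF) with myocardin or its relatives through a DNA element called the CArG box.

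Promoters are shown for 3 members, Acta2 and Des because they rose and Myl9 because its promoter holds the only exact CArG box found in the members. The RefSeq table, build GRCm38.p6, gave a stretch of 250 bases before to 50 after the start for 7 of the 10 members. These were Acta2, Cnn1, Des, Myl9, Tpm1, Tpm2 and Lmod1, the last without a row of counts. Tagln, Actg2 and Myh11 had no promoter there and were not searched. Each sequence is 5′ to 3′ on the strand of its gene, and capitals mark CArG boxes, either exact or with 1 inner base that is neither A nor T. The regions are chr19:34255324-34255623 on the minus strand for Acta2, chr1:75360042-75360341 on the plus strand for Des and chr2:156775214-156775513 on the plus strand for Myl9.
Acta2: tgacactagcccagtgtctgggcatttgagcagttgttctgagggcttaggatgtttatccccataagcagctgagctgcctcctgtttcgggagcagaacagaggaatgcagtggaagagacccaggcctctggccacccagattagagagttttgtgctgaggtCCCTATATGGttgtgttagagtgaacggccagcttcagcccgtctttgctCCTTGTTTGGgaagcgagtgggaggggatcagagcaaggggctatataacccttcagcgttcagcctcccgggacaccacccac
Des: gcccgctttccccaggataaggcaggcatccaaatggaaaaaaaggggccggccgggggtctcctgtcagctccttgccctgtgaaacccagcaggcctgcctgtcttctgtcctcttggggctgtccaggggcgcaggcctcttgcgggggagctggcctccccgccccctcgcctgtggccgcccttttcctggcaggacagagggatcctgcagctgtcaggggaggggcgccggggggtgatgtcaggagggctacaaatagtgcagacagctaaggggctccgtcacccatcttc
Myl9: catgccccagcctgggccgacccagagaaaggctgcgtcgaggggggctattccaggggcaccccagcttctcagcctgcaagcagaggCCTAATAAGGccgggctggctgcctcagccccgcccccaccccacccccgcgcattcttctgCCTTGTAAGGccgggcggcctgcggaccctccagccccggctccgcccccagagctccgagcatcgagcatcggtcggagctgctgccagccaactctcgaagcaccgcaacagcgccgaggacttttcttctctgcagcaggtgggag
An exact box stood in 1 of the 7 promoters, against 535 of 32851 promoters in the table, or 1.63%. The pattern reads the same on both strands. Allowing 1 other inner base, a choice added after the exact search, gave boxes in 2 of the 7, Acta2 and Myl9, against 9.98% of all promoters. The Acta2 boxes lay at -84 to -75 and at -34 to -25, and those of Myl9 at -161 to -152, the exact one, and at -99 to -90. These positions count from the start used for each promoter. For Acta2 and Myl9 that start lies inside the gene interval given below. In Acta2 the letters tatataa follow that start. Counted from another start, the positions would differ. Des, which rose, held none in this window and Myl9, which did not pass the test, held a pair, so the letters did not divide the searched members by call. A match is a description of letters and not a bound site.

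Total counts per library ran from 1898679 to 5990579, a 3.16-fold range, with shBrca2 replicate 3 the shallowest. Values below are counts divided by the DESeq2 size factor of the library, called normalized counts, and group means are given with SD. A gene was called when its DESeq2 adjusted p was under 0.1, its log2 fold change over 0.5 in either direction and its mean normalized count over 5. Of 12768 tested genes, 3.77% were called higher and 5.27% lower in shBrca2, and the median log2 fold change was 0.01. Across the members, shControl replicate 2 and shBrca2 replicate 3 stood apart from their groups. Summed over the 9 members, shControl replicates 1, 2 and 4 held 6764, 10441 and 6103 normalized counts, and shBrca2 replicates 1 to 4 held 10602, 10723, 7185 and 11575. By these sums shControl replicate 2 sat near 3 of the shBrca2 libraries, and shBrca2 replicate 3 sat near shControl replicates 1 and 4. Tpm1 and Tagln, at means of 3409 and 2927, made up most of the sums, and neither was called. For Acta2, shControl replicate 2 (54.4) lay below every shBrca2 library. For Des, shBrca2 replicate 3 (775) lay above shControl replicates 1 and 4 (344 and 410). Where leaving out either library changed the call of a member or of a cytoplasmic relative named below, the value without it is given beside the result.

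Among the actins, Acta2 rose and Actg2 did not pass the test. Acta2 encodes αSMA, the actin of vascular smooth muscle and myofibroblasts (chr19:34240336-34255585, minus strand, GRCm38). It had normalized counts of 57.2, 54.4 and 23.3 in shControl and 92.9, 102, 69.1 and 110 in shBrca2. All 4 shBrca2 libraries lay above all 3 shControl libraries, which held for 7.79% of all tested genes and for 1 of the 9 members. The means were 45.0 ± 18.8 (SD, n = 3) and 93.4 ± 17.6 (SD, n = 4), a 2.10-fold difference with a log2 fold change of 1.07 (SE 0.32, DESeq2 test, adjusted p = 0.018). Its raw counts were low, from 24 to 175, and the lowest of them has an exact 95% Poisson interval of 15.4 to 35.7 for counting error alone. That lowest library, shControl replicate 4, carried weight in the call: without it the log2 fold change was 0.76 with an adjusted p of 0.17 in the DESeq2 test. Without shBrca2 replicate 4 it was 0.99 with an adjusted p of 0.10, just past the threshold, and in 11 of the 13 alternatives Acta2 stayed called. On the reference annotation 9.3% of Acta2 exon bases also lie in Stambpl1, a gene on the opposite strand, and strand handling in the counting is not given in the sources used here. Stambpl1 itself had a log2 fold change of -0.09 (DESeq2 test, adjusted p = 0.94), and its sign turned in some alternatives.

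Actg2 encodes the actin of visceral, enteric smooth muscle (chr6:83512909-83536251, minus strand). Its normalized counts were 195, 386 and 114 in shControl and 489, 329, 173 and 494 in shBrca2. The groups overlapped, since shControl replicate 2 exceeded shBrca2 replicates 2 and 3. The means of 231 ± 140 (SD, n = 3) and 371 ± 153 (SD, n = 4) gave a log2 fold change of 0.69 (95% interval -0.10 to 1.47, DESeq2 test, adjusted p = 0.39). Left without shControl replicate 2, the comparison gave 1.27 with an adjusted p of 0.015.

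**Figure D1:**
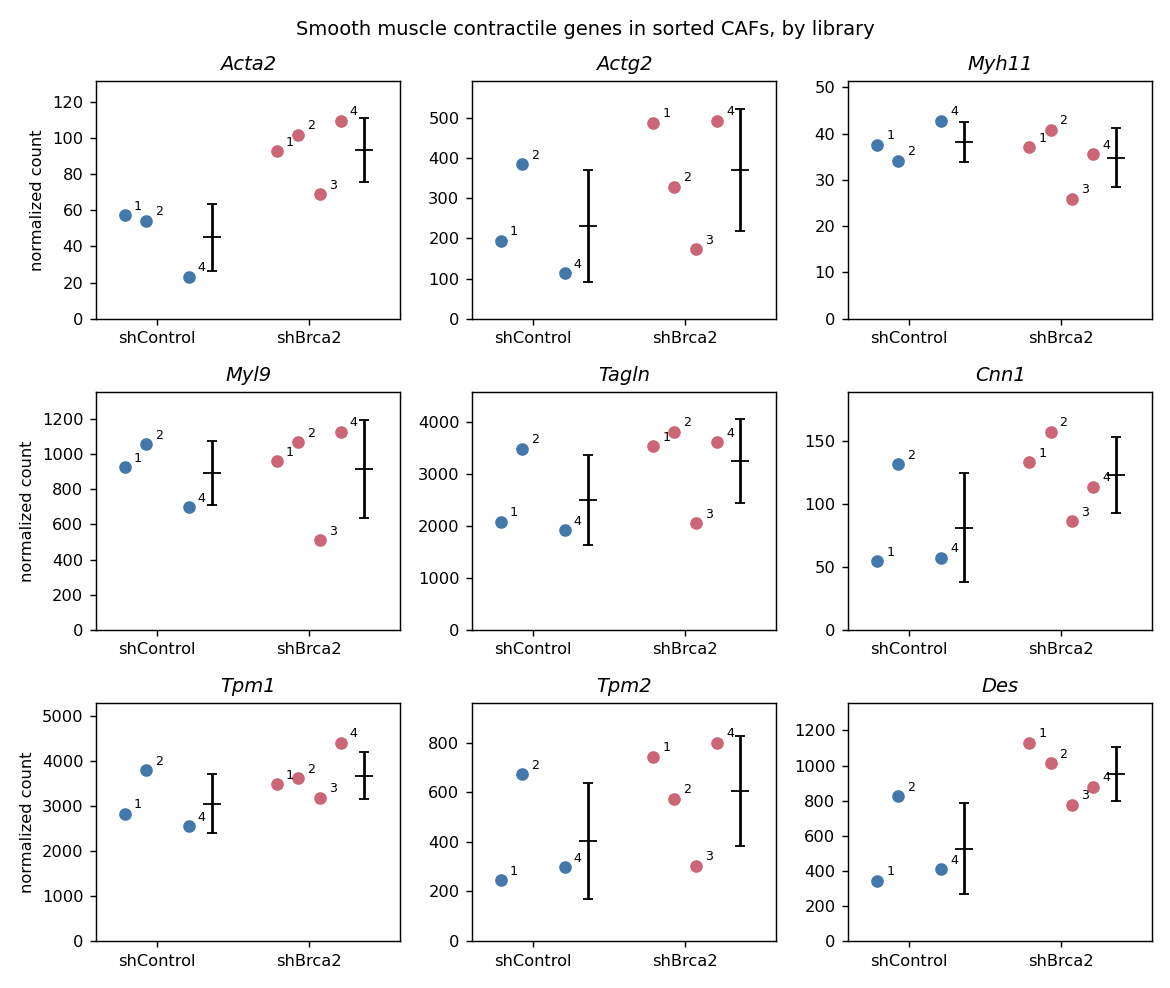
Normalized counts of the 9 members in each library, on linear axes that start at 0. Points are libraries, marked with their replicate number, and the bars beside them are the group mean ± SD. Acta2 is the member whose shBrca2 points, from 69.1 to 110, all lie above its shControl points, from 23.3 to 57.2.

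Neither myosin subunit passed the test. Myh11 encodes the smooth muscle myosin heavy chain, the most restricted marker of mature smooth muscle (chr16:14194527-14292188, minus strand). Its normalized counts were 37.6, 34.2 and 42.8 in shControl and 37.0, 40.8, 25.9 and 35.6 in shBrca2. This was the member with a negative fold change, -0.11 on the log2 scale (95% interval -0.69 to 0.48, DESeq2 test, adjusted p = 0.91), and its highest value belonged to shControl replicate 4, the library in which Acta2 was lowest. With raw counts of 15 to 70 the interval still spans a change of either sign. Over the 13 alternatives its log2 fold change stayed between -0.20 and -0.01, with no call.

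Myl9 encodes the regulatory light chain whose phosphorylation switches on contraction (chr2:156775408-156781657, plus strand). Normalized counts of Myl9 were 926, 1058 and 699 in shControl and 960, 1070, 511 and 1128 in shBrca2. The lowest of the 7 values was an shBrca2 library and so was the highest. The means were 894 ± 182 (SD, n = 3) and 917 ± 279 (SD, n = 4), and the log2 fold change was 0.04 (95% interval -0.48 to 0.56, DESeq2 test, adjusted p = 0.95). Its sign turned in 3 of the 13 alternatives.

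The 4 actin-binding members all had positive fold changes, and none passed the test. Tagln encodes transgelin (SM22), an early marker of smooth muscle differentiation (chr9:45929628-45936058, minus strand). It had normalized counts of 2079, 3485 and 1915 in shControl and 3532, 3812, 2057 and 3609 in shBrca2. Here shBrca2 replicate 3 was below shControl replicate 1, and shControl replicate 2 came close to shBrca2 replicate 1. The log2 fold change was 0.38 (95% interval -0.14 to 0.91, DESeq2 test, adjusted p = 0.51), and 0.70 with an adjusted p of 0.058 without shControl replicate 2. Of the annotated exon bases of Tagln, 66.7% also lie in the opposite-strand genes Gm48529 and Pcsk7, whose separate shares were not counted. The counts of Tagln are thus uncertain if strand was not used. Pcsk7 itself had a log2 fold change of -0.08 (DESeq2 test, adjusted p = 0.93).

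Cnn1 encodes calponin 1, which binds actin and slows the myosin cycle (chr9:22099221-22109221, plus strand). Its normalized counts were 54.7, 132 and 57.4 in shControl and 133, 157, 86.4 and 114 in shBrca2. In shControl replicate 2 the value was well above that of its group mates and nearly equal to shBrca2 replicate 1. Cnn1 had a log2 fold change of 0.62 (95% interval -0.03 to 1.27, DESeq2 test, adjusted p = 0.33). Without shControl replicate 2 it was 1.15 (adjusted p = 0.0042). Elof1, on the opposite strand, shares 35.1% of its exon bases and had a log2 fold change of 0.14 (DESeq2 test, adjusted p = 0.78).

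Tpm1 and Tpm2 encode tropomyosins, the coiled-coil proteins along the thin filament, and both genes also make isoforms used outside muscle, which 3′-end counts do not separate. Tpm1 (chr9:67022590-67049672, minus strand) had normalized counts of 2826, 3795 and 2546 in shControl and 3486, 3624, 3183 and 4405 in shBrca2. Its second highest value was that of shControl replicate 2. The log2 fold change was 0.27 (95% interval -0.11 to 0.64, DESeq2 test, adjusted p = 0.52). Tpm2 (chr4:43513726-43523583, minus strand) had 244, 673 and 297 in shControl and 744, 573, 304 and 799 in shBrca2. Only 2 shBrca2 libraries stood above shControl replicate 2, and shBrca2 replicate 3 was level with shControl replicate 4. Tpm2 differed by a log2 fold change of 0.58 (95% interval -0.14 to 1.31, DESeq2 test, adjusted p = 0.45) and by 1.16 without shControl replicate 2 (adjusted p = 0.0091).

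Des, which encodes the muscle intermediate filament desmin, found in smooth, skeletal and cardiac muscle and in pericytes, was the second member to rise (chr1:75360292-75368579, plus strand). Its normalized counts were 344, 824 and 410 in shControl and 1129, 1015, 775 and 880 in shBrca2. The groups met at 1 point, since shControl replicate 2 lay above shBrca2 replicate 3, and the other shControl libraries were well below every shBrca2 library. The means of 526 ± 260 (SD, n = 3) and 950 ± 154 (SD, n = 4) differed 1.81-fold, a log2 fold change of 0.86 (SE 0.28, DESeq2 test, adjusted p = 0.046). Without shControl replicate 2 it was 1.34 (adjusted p = 2.3e-07). The call was lost without shControl replicate 4 (0.71, adjusted p = 0.22), without shControl replicate 1 (0.63, adjusted p = 0.26) and without shBrca2 replicate 1 (0.76, adjusted p = 0.16).

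**Figure D2:**
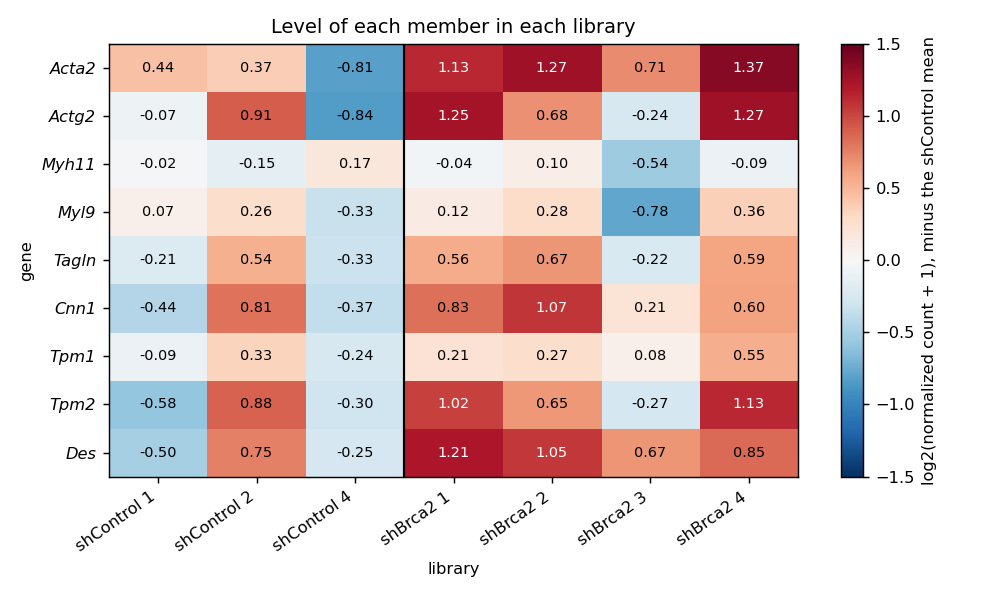
Log2(normalized count + 1) of each member minus its shControl mean, with genes in rows, the 7 libraries in columns and red for values above 0. shControl replicate 2 is above 0 for every member but Myh11, shBrca2 replicate 3 is the lowest of its group in every row, and Acta2, Cnn1, Tpm1 and Des are above 0 in all 4 shBrca2 libraries.

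The libraries ordered the members in a similar way. shBrca2 replicate 4 held the highest normalized count for 5 of the 9 members and shBrca2 replicate 2 for 2, while Des was highest in shBrca2 replicate 1 and Myh11 in shControl replicate 4. shControl replicate 4 was lowest for 4 members and shControl replicate 1 for 3, but shBrca2 replicate 3 was lowest for Myh11 and Myl9. For 7 of the members shControl replicate 2 ranked 2 to 4 among the 7 libraries, and for Acta2 and Myh11 it ranked 6. Acta2 was thus the called member that did not share the raised level of that library.

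As a set, 8 of the 9 members had positive log2 fold changes with a median of 0.58, beside 50.85% positive and a median of 0.01 over all tested genes. The 2 called of 9 stand beside the 3.77% of all genes called higher. Their number turned on single libraries. Without shControl replicate 2, 6 of the 9 were called higher (Acta2, Actg2, Tagln, Cnn1, Tpm2 and Des) beside 4.87% of all genes. Without shControl replicate 4 neither DESeq2 nor edgeR called any, beside 3.15% of all genes by DESeq2, and 2 members had an unadjusted p under 0.05. Without shBrca2 replicate 3 the called members were again Acta2 and Des, at 1.18 and 0.94 on the log2 scale. With all 7 libraries edgeR's quasi-likelihood test also called 2 (Acta2 at adjusted p = 0.048 and Des at 0.088), and no member was called lower in any of the 13 alternatives. In bulk samples, more cells that express a gene and more RNA of it per cell cannot be told apart.

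**Figure D3:**
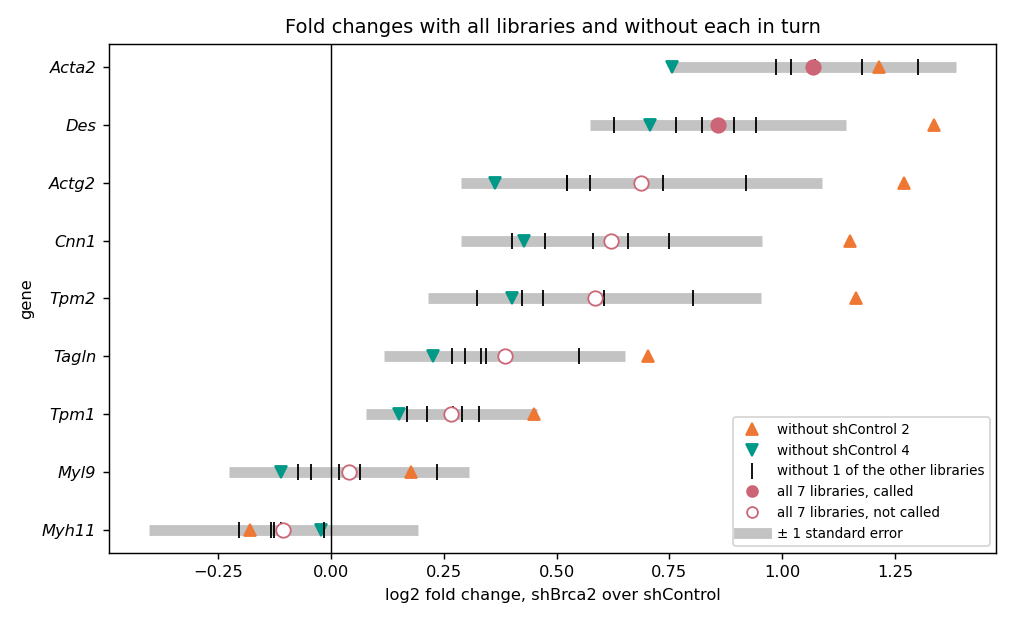
Log2 fold change of each member, shBrca2 over shControl, with circles for all 7 libraries (filled where called), grey bars of ± 1 SE, triangles for the fits without shControl replicate 2 or 4 and ticks for the fits without 1 of the others. Of all 9 members, Acta2 and Des are the filled ones, and the triangles without shControl replicate 2 lie to the right of the circles for every member but Myh11.

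The other contractile genes of smooth muscle moved in both directions. Of 18 listed, 14 were in the table, 3 were called higher and 2 lower, and the median log2 fold change was 0.12. Over all tested genes 3.77% were called higher and 5.27% lower. Cald1, which encodes caldesmon, an actin-binding inhibitor of the myosin ATPase, rose from 493 ± 189 (SD, n = 3) to 870 ± 162 (SD, n = 4), a log2 fold change of 0.82 (SE 0.26, DESeq2 test, adjusted p = 0.034). All shBrca2 libraries lay above all shControl libraries for Cald1, which held for 2 of the 14 and for 7.79% of all tested genes. Without shControl replicate 4 the call of Cald1 was lost at 0.58 (DESeq2 test, adjusted p = 0.20). Pdlim3 and Pdlim7, PDZ and LIM domain proteins of the actin cytoskeleton, rose by 1.06 and 0.73 (DESeq2 test, adjusted p = 0.082 and 0.081), each losing its call in 6 of the 13 alternatives. Synm, which encodes synemin, a partner of desmin in intermediate filaments, fell to 0.354 of its shControl level (DESeq2 test, adjusted p = 0.014), from 24.6 ± 6.26 to 8.88 ± 2.00 (SD, n = 3 and n = 4), although Des rose. Fhl1, a LIM protein of muscle, fell by 0.70 (DESeq2 test, adjusted p = 0.0090), and both genes lost their call in 4 alternatives.

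The cytoplasmic relatives of the members, found in most cells, gave no call by DESeq2 or by edgeR among 18 genes in all 7 libraries, with 3 at an unadjusted p under 0.05. As with the members, this count turned on the same libraries. DESeq2 called 3 of the 18 higher without shControl replicate 2, beside 4.87% of all tested genes. Without shBrca2 replicate 3 DESeq2 called 4 of the 18 higher, in a fit that called 489 genes higher in all. Actb, the cytoplasmic counterpart of Acta2, had a log2 fold change of 0.06 (DESeq2 test, adjusted p = 0.93) and changed sign in 2 alternatives. Actg1 had 0.60 (DESeq2 test, adjusted p = 0.35), a value made uncertain because 93.2% of its 3′-end sequence words recur in transcripts of other genes, against 0% for every member. Without shControl replicate 2 it was 1.04 (DESeq2 test, adjusted p = 0.021). The tropomyosins Tpm3 and Tpm4 had 0.20 and 0.50 (DESeq2 test, adjusted p = 0.65 and 0.31), and Tpm4 had 0.68 (adjusted p = 0.043) without shBrca2 replicate 3. Tagln2, the relative of Tagln outside muscle, went from 3622 ± 621 (SD, n = 3) to 5082 ± 302 (SD, n = 4) with no overlap, but its log2 fold change of 0.49 was under the 0.5 required (DESeq2 test, adjusted p = 0.032). Cnn3 had 0.46 (adjusted p = 0.081) for the same reason and Cnn2 had 0.01 (adjusted p = 0.97), with its sign turning in 5 alternatives. Tagln2 was called without shControl replicate 2 (0.64, DESeq2 test, adjusted p = 0.0017) and without shBrca2 replicate 3 (0.51, adjusted p = 0.061). Cnn3 was called in the same fits, at 0.55 (DESeq2 test, adjusted p = 0.056) and 0.53 (adjusted p = 0.043). With all 7 libraries Tagln2 and Cnn3 did not overlap between the groups, and Tagln and Cnn1 did. All shBrca2 libraries lay above all shControl libraries for 3 of the 18 cytoplasmic genes, beside 7.79% of all tested genes.

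Regulators of the members showed no common direction. Srf itself had normalized counts of 152, 186 and 186 in shControl and 145, 149, 114 and 148 in shBrca2. All 4 shBrca2 values were below all 3 shControl values. The reverse separation held for 7.79% of all tested genes, and the share in this direction was not counted. The Srf difference of -0.31 on the log2 scale did not pass (DESeq2 test, adjusted p = 0.41). Mrtfa and Mrtfb, myocardin-related coactivators of SRF, had -0.25 and 0.03 (DESeq2 test, adjusted p = 0.54 and 0.96), the second with a sign that turned in 3 alternatives, and Myocd was not analysed here. In the list of 10 regulators in the table, Gata6, a zinc-finger factor of smooth muscle and mesothelium, rose by 0.80 (DESeq2 test, adjusted p = 0.065), and Fhl2, a LIM cofactor of SRF, fell by 0.61 (adjusted p = 0.098). These calls were lost in 8 and 9 of the 13 alternatives, and edgeR called neither. They stand beside 3.77% of all tested genes called higher and 5.27% called lower.

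Of all tested genes 3.77% were called higher and 5.27% lower. Of 12 genes for contraction signalling in the table, Kcnma1 alone was called. It encodes the pore of the large-conductance calcium-activated potassium channel, which relaxes smooth muscle, and fell from 86.7 ± 14.4 (SD, n = 3) to 40.2 ± 5.64 (SD, n = 4), a log2 fold change of -1.12 (SE 0.26, DESeq2 test, adjusted p = 0.00061). It was called in all 13 alternatives, which no member was. Among 12 myofibroblast genes outside contraction, Itga11, a collagen receptor subunit of myofibroblasts, fell from 249 ± 36.9 (SD, n = 3) to 110 ± 16.3 (SD, n = 4), which is -1.19 on the log2 scale (DESeq2 test, adjusted p = 1.1e-06), again in all 13 alternatives, and Tgfb1 rose by 1.08 (adjusted p = 0.062), losing its call in 5 and standing at 1.83 without shControl replicate 2. Itga11 thus moved opposite to Acta2, with which it is often grouped as a myofibroblast gene.

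**Figure D4:**
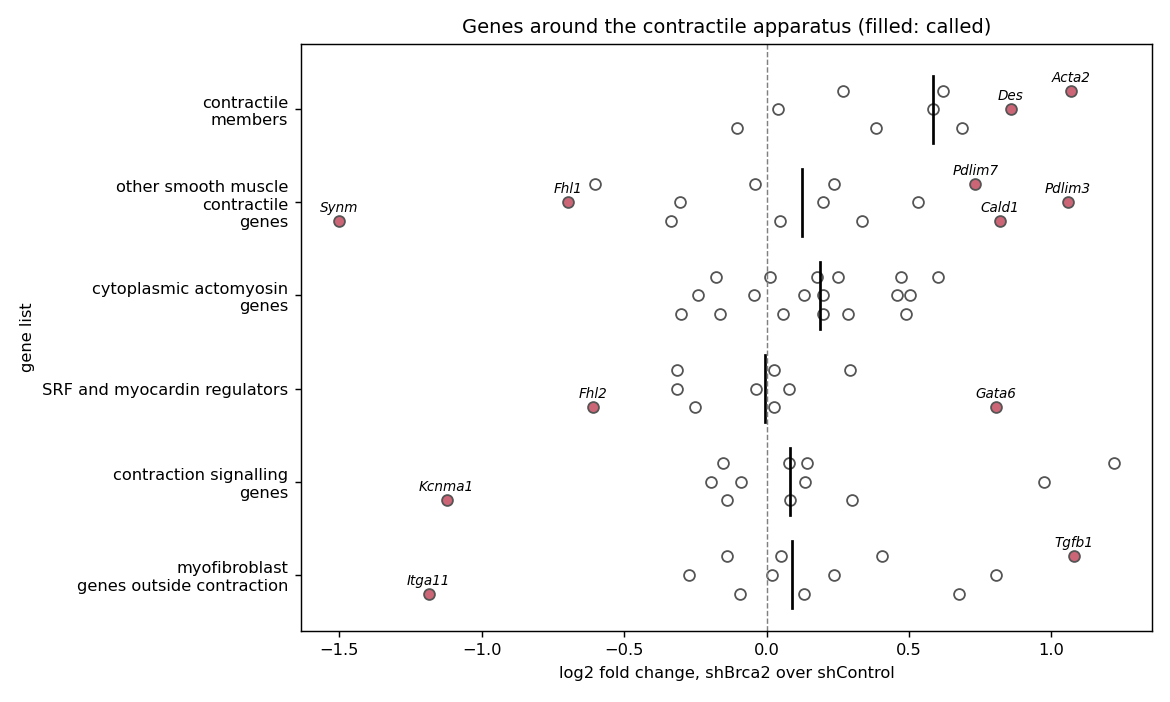
Log2 fold change of every gene of the members and of 5 related lists, shBrca2 over shControl, with called genes marked. The median of the members, 0.58, lies above those of the other lists, which run from -0.01 to 0.19, and called genes of the other lists stand on both sides of 0.

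Marker genes of other cells were measured beside the members, with 5.27% of all tested genes called lower. Among fibroblast markers Col1a1, a chain of type I collagen, had a log2 fold change of -0.04, while Dcn and Lum, proteoglycans of fibroblasts, fell by 0.77 and 1.18 (DESeq2 test, adjusted p = 0.069 and 0.015), and edgeR called Lum but not Dcn (adjusted p = 0.12). In shControl replicate 2, the library with raised contractile genes, Dcn was at 11244 and Lum at 301, inside the range of the shBrca2 libraries, against 24418 and 26065 for Dcn in the other shControl libraries. Pericyte markers, 9 of 10 in the table, had 3 called higher, beside 3.77% of all tested genes. These were Notch3 by 1.12, Ndufa4l2 by 1.35 and Cox4i2 by 1.84 (DESeq2 test, adjusted p = 0.014, 0.0067 and 0.074). Another 3 of the 9 had negative log2 fold changes: Abcc9 at -0.32, Kcnj8 at -0.13 and Pdgfrb. Notch3 lost its call without shControl replicate 4 (0.85, DESeq2 test, adjusted p = 0.14) and with a replicate block (1.08, adjusted p = 0.17), and edgeR did not call Cox4i2 (adjusted p = 0.11). Summed, they gave 1532, 2378 and 1670 normalized counts in shControl replicates 1, 2 and 4, and 2133 to 2493 in shBrca2. The second shControl library was again the high one of its group. The defining pericyte marker Rgs5 had raw counts of only 1 to 8 in a library, and Pdgfrb had a log2 fold change of -0.06 (DESeq2 test, adjusted p = 0.92) with a sign that turned in 2 alternatives. The part of pericytes in the rise of Acta2 and Des was not tested.

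Markers of skeletal and cardiac muscle, 6 of 11 in the table, gave summed normalized counts of 59.3 to 81.0 in shControl and 39.7 to 88.4 in shBrca2, with no call by DESeq2 or edgeR and 0 at an unadjusted p under 0.05. Mesothelial markers, 8 of 9, summed to 1123 to 3377 in shControl and 3210 to 3596 in shBrca2. The keratins Krt8, Krt18 and Krt19 were called higher, the last not by edgeR (adjusted p = 0.14). Msln, Upk1b and Wt1 were not called, at 0.89, 0.70 and 0.15 on the log2 scale (DESeq2 test, adjusted p = 0.44, 0.61 and 0.80). Upk3b and Lrrn4, 2 of the 8, had negative log2 fold changes of -0.40 and -0.09. Whether the keratins came from mesothelial or epithelial cells was not tested. Epithelial markers, 3 of 8, summed to 26.5 to 106 and 140 to 238, with Krt7 called higher and Epcam not among the genes analysed here. Immune markers, 4 of 8, summed to 242 to 283 and 372 to 401, and Ptprc was not analysed here. Csf1r, which went from 113 to 248, was called higher by both tools, and C1qa by DESeq2 but not by edgeR (adjusted p = 0.11). Cd68 and Lyz2, the other immune markers in the table, had log2 fold changes of -0.32 and -0.26. The higher calls among mesothelial, epithelial and immune markers stand beside 3.77% of all tested genes called higher. Endothelial markers, 4 of 8, summed to 76.9 to 121 and 86.4 to 114, with no call by DESeq2, 1 by edgeR and 2 genes at an unadjusted p under 0.05. Kdr, at a log2 fold change of 0.51, was the largest part of these sums. Negative log2 fold changes were those of Pecam1 at -3.60, Tek at -1.55 and Lyve1 at -0.42 (DESeq2 test, adjusted p = 0.031, 0.12 and 0.86). Pecam1 had a mean normalized count of 3.87, under the 5 required. The fibroblast sums, 124470 to 140924 in shControl and 98224 to 117868 in shBrca2, and the immune and epithelial sums did not overlap between the groups, and their part in the members' values was not tested.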

How the data were processed

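The authors deposited raw counts by gene symbol for the 7 libraries in 1 table. Per the labels, 3′-end libraries were made by a variant of MARS-seq, and the submitters' processing notes name bcl2fastq, cutadapt, STAR 2.4.2a, HTSeq, DESeq2 and the build mm10, with no order. Strand handling, annotation and collapsing of molecular barcodes are not given in the sources used here, so reads may include PCR copies. The Poisson interval given for Acta2 covers counting error only, while the fold change intervals also carry the spread between libraries. Groups came from the label on the Brca2 status of the KPC cells.

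DESeq2 1.42.0 (R 4.3.3) was run on all 7 libraries and all genes, with median-of-ratios size factors, a likelihood ratio test of the group and no covariate. DESeq2, the likelihood ratio test and the thresholds follow the study's methods. A call needed a Benjamini-Hochberg adjusted p under 0.1, an absolute log2 fold change over 0.5 and a mean normalized count over 5. 3 genes received no adjusted p. Fold changes are shBrca2 over shControl and intervals are the estimate with its normal 95% range. The 13 alternatives were edgeR 4.0.16 with TMM factors, the DESeq2 Wald test, TMM factors in DESeq2, a filter of 10 counts in 3 libraries, a replicate block, the same 6 libraries unpaired, and leaving out each library in turn. The script was tested on simulated data. Every pair of libraries differed by more than sampling noise.

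Members and lists were chosen with earlier results of these data known. Named were all members, the called genes of the other lists (at most 6 each), the paralogues Actb, Actg1, Tpm3, Tpm4, Tagln2, Cnn2 and Cnn3, the regulators Srf, Myocd, Mrtfa and Mrtfb, the pericyte markers Rgs5, Notch3 and Pdgfrb, and Stambpl1. Col1a1, Pcsk7, Elof1, Epcam, Ptprc, Upk3b, Lrrn4, Msln, Upk1b, Wt1, Cd68, Lyz2, Abcc9, Kcnj8, Kdr, Pecam1, Tek and Lyve1 were added after their values were seen. Promoters and positions are from RefSeq on GRCm38.p6, the build of the notes, and exon overlaps and shared 3′-end sequence words from GENCODE on GRCm39, without use of its coordinates.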

Additional observations from a re-analysis of the deposited data

Results flagged for a closer look

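Tagln in the shBrca2 group held 1 library far from the others. shBrca2 replicate 3 had 2057 normalized counts against 3532 to 3812 in replicates 1, 2 and 4, and its gap to the nearest library was 0.84 of the whole range, above Dixon's 95% critical value for 4 samples. Chance marks about 1 in 20 such groups, and 9 members were looked at. The shControl group, with 3 libraries, was not tested. The same library was also the lowest of the shBrca2 group for every other member, and it was the shallowest of the 7.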

How the results depend on the processing

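With all libraries 1154 genes were called. Separate fits without 1 library called 615 to 1305 genes, and the fit with the replicate block on numbers 1, 2 and 4 called 564. The called members numbered 0 to 6 when 1 library was left out and 2 under the block. Other contractile genes, 5 called, gave 1 to 6 without 1 library and 2 with the block. Cytoplasmic genes, 0 called, gave 0 to 4, 1 with the block and 4 in the same 6 libraries unpaired. Regulators, 2 called, gave 0 to 2, 1 by the Wald test, and 0 by edgeR, with the block and in the 6 libraries. Contraction signalling gave 1 to 2, and myofibroblast genes 1 to 3, with 1 by edgeR. The cause was not tested. Fold changes near 0 turned in sign as libraries were left out, with log2 ranges of -0.11 to 0.23 for Myl9, -0.0556 to 0.293 for Actb, -0.17 to 0.34 for Cnn2, -0.12 to 0.38 for Mrtfb, -0.166 to 0.08325 for Pdgfrb and -0.25 to 0.13 for Stambpl1, the last also at 0.0574 with the block and 0.02495 in the 6 libraries. Deviations of same-numbered libraries correlated at -0.155, -0.20 and -0.02, so no pairing by number was seen. Each deviation is from a mean of only 3 libraries, so these values cannot settle whether same-numbered libraries shared handling. Under the block Acta2 stood at 1.24 on the log2 scale (DESeq2 test, adjusted p = 0.060) and Des 1.04 (0.018). edgeR, run without each library as an addition after seeing the data, called 0 to 5 members. Among the members, raw counts were under 100 in at least 1 library for Acta2, Myh11 and Cnn1, which limits the precision of their values.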
